A study of Mus musculus with 12 samples.

Results

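The genes described here encode the factors that start translation in eukaryotic cells. They were taken as every symbol that begins with Eif, without the eIF2 kinases (Eif2ak), Eif5a, Eif5a2 and Eif4enif1. That left 48 of 55 such symbols, among 24478 genes in all. RNA with poly(A) tails was sequenced from mouse thymic tissue in 12 libraries, 3 in each of 4 groups. The control thymus is described by its label as T lymphocytes carrying only endogenous MYC. T58A lymphomas were labelled as T lymphocytes with ectopic MYCT58A as their only MYC, and S62A lymphomas as T lymphocytes with ectopic MYCS62A as their only MYC. The other group, called splenomegaly here, was thymic masses from animals with S62A and an enlarged spleen, whose label names T and B lymphocytes and both ectopic MYCS62A and endogenous MYC. In each mutant an alanine stands where phosphorylation of a threonine or a serine governs turnover of the MYC protein. The promoter of the ectopic gene, the strain, the age and the number of animals do not stand in the labels used here, so p-values measure the spread between libraries, which may be partly technical.

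Translation of most mRNAs begins when eIF4E binds the cap at the 5′ end and joins the scaffold eIF4G and the RNA helicase eIF4A. The small ribosomal subunit, carrying eIF3, eIF1, eIF1A and the initiator tRNA held by eIF2 and GTP, then scans to a start codon, where eIF5 and eIF5B complete the joining of the large subunit. eIF2B recharges eIF2 with GTP, and the 4E-binding proteins hold eIF4E away from eIF4G until mTOR phosphorylates them. Several of these genes are known targets of MYC, a transcription factor that binds the E-box CACGTG.

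Reads assigned to genes ranged from 9577372 to 22437968 per library. Expression is given as CPM, a gene's counts scaled to the depth of its library, or as FPKM where genes are compared with each other per transcript length. Myc lay at 79.9 to 85.5 CPM in controls, 134 to 159 in T58A lymphoma, 157 to 203 in S62A lymphoma and 84.2 to 100 in the splenomegaly masses, and the counts do not separate the mutant from the endogenous transcript. The tissues differed in their cells. The summed level of 8 T cell markers was 7951 to 8053 CPM in controls, 2555 to 3740.2 in T58A lymphoma, 2232 to 3686 in S62A lymphoma and 771 to 879 in the splenomegaly masses. The corresponding ranges were 76.8 to 81.9, 36.2 to 395, 30.4 to 48.8 and 1982 to 2651 for 9 B cell markers, and 479.9 to 569, 1529 to 2213, 1280.0 to 1834 and 3691 to 6336 for 7 macrophage markers. For 7 markers of thymic epithelium they were 2229 to 2441, 103 to 142, 13.8 to 34.9 and 67.5 to 75.1 CPM. No marker of these 4 lists was at 0 throughout a group. In such mixtures, fewer cells of a type and less RNA per cell cannot be told apart, and the part of these shifts in the results that follow was not tested. The code in the library titles was G for control libraries 1 and 2, H for control library 3 and all T58A libraries, and I for both S62A groups, so that code and group cannot be told apart for S62A against control or for S62A against T58A lymphoma.

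Most initiation factor genes that changed in the lymphomas rose. A call means an adjusted p under 0.05 in edgeR's quasi-likelihood test over 15606 genes. Reads were found for 47 of the 48 members, and all 47 were tested. Eif3j1 and Eif3j2 hold the same counts, so 46 of these are distinct, and the counts and shares below include both symbols. Eif4e1b, a relative of eIF4E known from oocytes, had no read in any library. In T58A lymphoma 24 of 47 were called, which is 51.1%, against 36.2% of all genes. Of these, 22 rose (46.8%, against 18.8% of all genes) and 2 fell (4.26%, against 17.4%). In S62A lymphoma 29 were called (61.7%, against 44.1%), with 27 higher (57.4%, against 21.9%) and 2 lower (4.26%, against 22.2%). In the splenomegaly masses 19 were called (40.4%, against 49.2%), with 14 higher (29.8%, against 22.9%) and 5 lower (10.6%, against 26.3%). The 3 comparisons share the control libraries. The median log2 difference from control of the members was 0.39 in T58A lymphoma, 0.52 in S62A lymphoma and 0.20 in splenomegaly, where that of all tested genes was 0.01, 0.00 and -0.08. Summed over members, the level was 7843 to 8266 CPM in controls, 10289 to 11354 in T58A lymphoma, 11594 to 11995 in S62A lymphoma and 8049 to 9599.9 in splenomegaly. The lymphoma sums lay above all control sums, whereas the lowest splenomegaly sum lay within the control range. With control library 3 as the only control, the one that shares its title code with the T58A libraries, none of the 47 members was called in T58A lymphoma, against 2.6% of all genes. That fit has 1 control library, assumed to vary like the other groups. The log2 differences in it were 1.38 for Eif2b3 (1.33 with all controls), 1.26 for Eif3e (1.13), 1.19 for Eif1a (1.12), 1.09 for Eif2s2 (1.07), 1.07 for Eif3a (1.02) and 0.86 for Eif4b (0.86). When splenomegaly and control were fitted without the other groups, 30 members were called, against 62.8% of all genes.

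**Figure D1:**
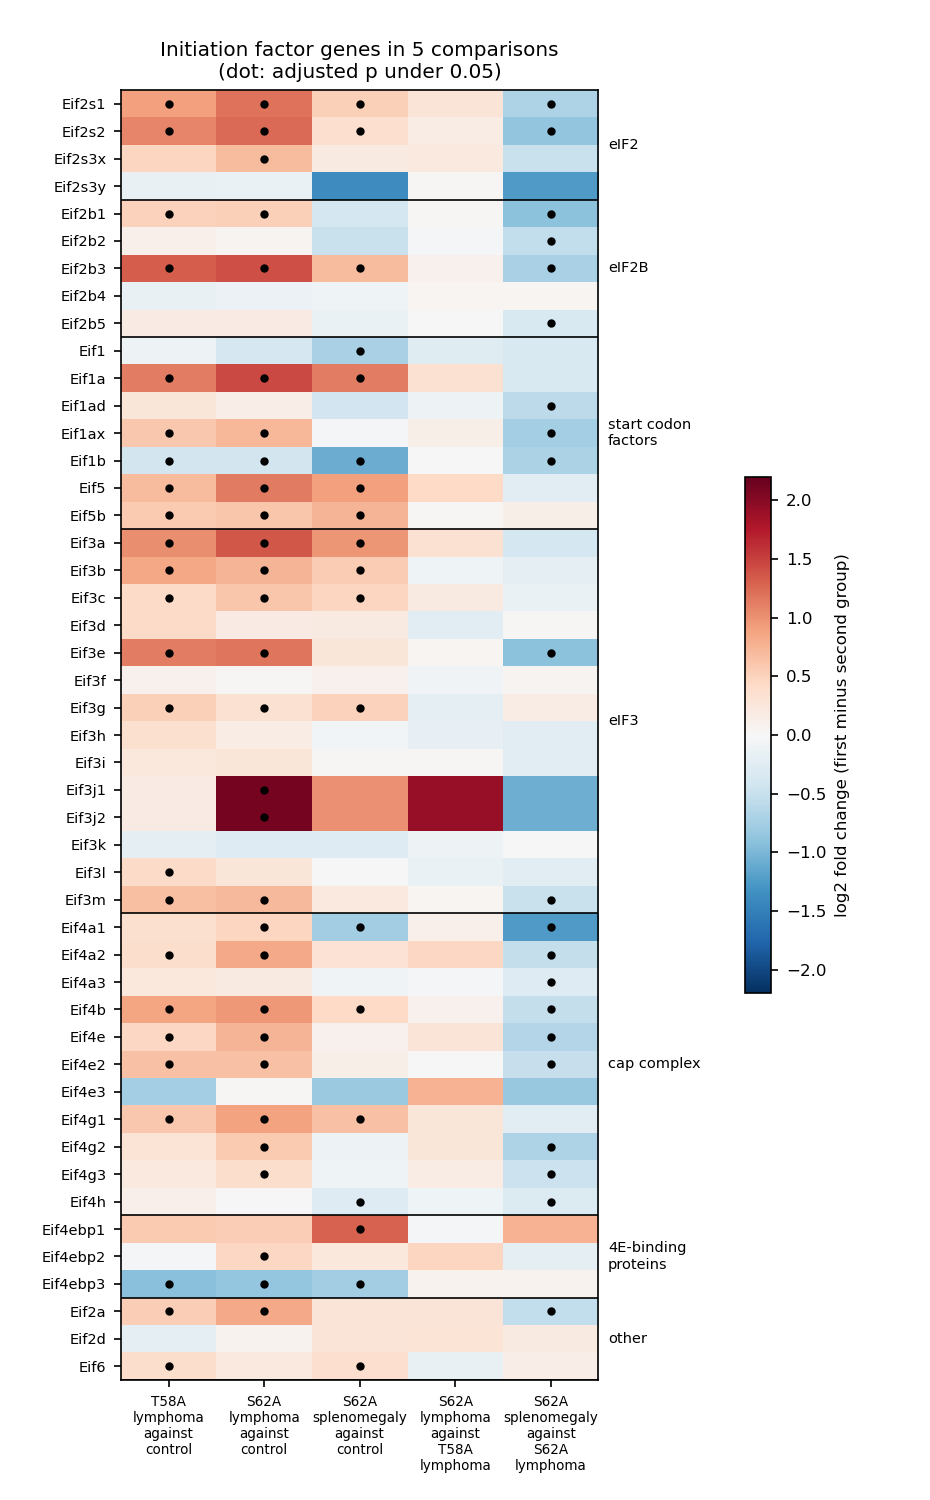
Log2 fold change of each of the 47 tested initiation factor genes (rows, by role) in 5 comparisons (columns), with red for a higher and blue for a lower level in the group named first. Black dots mark an adjusted p under 0.05; the first 2 columns hold 22 and 27 dots on red and 2 each on blue, and the fourth column holds none.

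The E-box letters CACGTG, the same on both strands, were looked for in RefSeq promoter windows of GRCm38.p6, from 250 bases before to 50 bases after each start. Of the members, 36 had a window and 8 of these (22.2%) held the motif, against 8.09% of 27025 genes with a window. Those 27025 genes were not limited to genes with reads here, whereas the members mostly had reads, so the shares are not like for like. Of these 8, the members whose printed stretch lies wholly before the start are shown, since these are the letters MYC is known to bind. Capitals mark the motif, with 20 bases on either side, 5′ to 3′ on the strand of the gene.
Eif4e, first site: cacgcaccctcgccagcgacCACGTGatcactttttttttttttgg
Eif4e, site nearer the start: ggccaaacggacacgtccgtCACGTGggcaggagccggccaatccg
Eif4g1: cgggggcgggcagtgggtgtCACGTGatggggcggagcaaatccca
Eif4a1: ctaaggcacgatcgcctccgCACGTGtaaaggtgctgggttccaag
Eif4h: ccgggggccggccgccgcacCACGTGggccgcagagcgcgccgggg
Eif3f: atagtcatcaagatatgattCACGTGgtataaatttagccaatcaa
Eif3k: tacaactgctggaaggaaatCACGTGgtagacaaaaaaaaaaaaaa
The motif of Eif4e began 228 and 64 bases before the start (printed sequences at chr3:138527020-138527065 and chr3:138527184-138527229, + strand), and the printed motif of Eif4g1 54 bases before it (chr16:20672653-20672698, + strand). Eif4g1 holds another motif after its start, which is not printed. For Eif4a1 the motif began 189 bases before the start (chr11:69672587-69672632, - strand) and for Eif4h 96 bases before it (chr5:134639480-134639525, - strand). For Eif3f and Eif3k it began 68 and 44 bases before the start (chr7:108934327-108934372, + strand, and chr7:28981907-28981952, - strand). The other holders were Eif1b and Eif3a. Holders of the motif differed in their response. The motif was held by 3 of 17 members with a window that were called higher in both lymphoma groups, and by 5 of 19 other tested members. Eif3a, Eif4e and Eif4g1 passed the test as higher in each lymphoma group and Eif1b as lower, Eif4a1 passed as higher in S62A lymphoma and not in T58A lymphoma, and Eif3f, Eif3k and Eif4h passed in neither.

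In eIF2, which brings the initiator tRNA, the alpha and beta subunit genes rose in every diseased group. Eif2s1 (alpha subunit, the one that stress kinases phosphorylate, at chr12:79963059-79987997 of mm9) was at 88.7, 86.1 and 79.7 CPM in control libraries 1 to 3, 172, 134 and 171 in T58A lymphoma, 181, 183 and 218 in S62A lymphoma, and 109, 123 and 132 in splenomegaly. No diseased library overlapped the controls, and the splenomegaly libraries lay below both lymphoma groups. The log2 difference from control was 0.91 ± 0.13 (SE) in T58A lymphoma (adjusted p = 4.86e-04), 1.19 ± 0.13 in S62A lymphoma (6.86e-05) and 0.52 ± 0.13 in splenomegaly (0.00769). Eif2s2 (beta subunit) was at 58.8, 58 and 58 CPM in controls, 130.4, 106 and 130.1 in T58A lymphoma, 137, 133 and 143 in S62A lymphoma, and 61.2, 82.3 and 83.2 in splenomegaly. All lymphoma libraries were well above the controls, while splenomegaly library 1 lay close to them. Its log2 differences from control were 1.07 ± 0.13, 1.24 ± 0.14 and 0.37 ± 0.13, with adjusted p of 2.04e-04, 5.73e-05 and 0.0369. The last of these was lost when any of the 3 control libraries, splenomegaly library 2 or splenomegaly library 3 was left out, at adjusted p of 0.0721 to 0.12. It was also lost with library size scaling (0.27, adjusted p = 0.127) and with limma on FPKM (0.25, 0.137). Of the gamma subunit, the X-linked gene Eif2s3x was low at 3.34 to 7.32 FPKM in all libraries. It was at 12.9, 11.3 and 11.1 CPM in controls, 18.5, 14.8 and 15.8 in T58A lymphoma, 16.1, 17.2 and 23.5 in S62A lymphoma, and 14.1, 10.5 and 15.7 in splenomegaly, so the lymphomas were above the controls. It passed the test in S62A lymphoma (0.69 ± 0.23, 0.0282). That call was lost without S62A lymphoma library 3 (0.51, adjusted p = 0.0952) and without each control library in turn (0.65 to 0.76, adjusted p up to 0.0898), and without the 4 libraries low in Y-linked genes described further on (0.50, 0.0649). Of its 50-base windows, 36.2% also occur in other annotated transcripts, and how the authors assigned such reads does not stand in the labels. The same limit holds for other members, since 17 shared at least 10% of their windows in this way. Among them were Eif4e (41.8%), Eif3m (40%), Eif1 (31.6%), Eif2s2 (27.8%) and Eif3e (22%).

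Of the 5 subunit genes of eIF2B, the exchange factor that returns eIF2 to its active form, Eif2b1 and Eif2b3 rose in both lymphoma groups. Eif2b3 (gamma subunit, chr4:116692013-116759457 of mm9) had the largest rise of any member in T58A lymphoma. It was at 14.3, 16.5 and 14.9 CPM in controls, 35.7, 38 and 41.6 in T58A lymphoma, 46.1, 32.8 and 43.7 in S62A lymphoma, and 25.3, 25.3 and 23.7 in splenomegaly. Controls were lowest, the splenomegaly masses intermediate, and the lymphomas highest, with no overlap between these levels. Log2 differences from control were 1.33 ± 0.16 (adjusted p = 1.48e-04), 1.42 ± 0.16 (7.11e-05) and 0.70 ± 0.16 (0.00394). Eif2b1 (alpha subunit) was at 64.7, 61.4 and 64.8 CPM in controls, 105, 76.4 and 87.7 in T58A lymphoma, 94.8, 87.6 and 91 in S62A lymphoma, and 47.6, 39.7 and 58.4 in splenomegaly. It was above the controls in every lymphoma library and below them in every splenomegaly library. It rose by 0.50 ± 0.15 and 0.52 ± 0.15 in T58A and S62A lymphoma (adjusted p = 0.0257 and 0.0178) and differed by -0.39 ± 0.15 in splenomegaly (0.0545). The T58A rise was lost without T58A library 1 or any control library (0.067 to 0.101), and the S62A rise without control library 1 or 2 (0.0513 and 0.0658). In splenomegaly Eif2b1 passed as lower without splenomegaly library 3 (-0.48, 0.0307). Eif2b2, Eif2b4 and Eif2b5 (beta, delta and catalytic epsilon subunits) had differences of -0.17 to 0.18 in the 2 lymphoma groups, none past the test.

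Genes with an Eif1 symbol, Eif5 and Eif5b were grouped by symbol under start codon selection and subunit joining. Of these 7 genes, 4 rose and 1 fell in each lymphoma group. Of all genes 18.8% and 21.9% rose in T58A and S62A lymphoma, and 17.4% and 22.2% fell, so the count of falls lies near the background. Eif1a, which encodes an eIF1A protein of the scanning complex, was at 77.2, 72.2 and 70.2 CPM in controls, 196, 128 and 154 in T58A lymphoma, 197, 169.6 and 238 in S62A lymphoma, and 139, 161 and 182 in splenomegaly. Every diseased library exceeded every control, by 1.12 ± 0.18 (adjusted p = 7.25e-04), 1.46 ± 0.18 (1.12e-04) and 1.13 ± 0.18 (3.84e-04) on the log2 scale. Its X-linked relative Eif1ax was at 105, 105 and 92.4 CPM in controls, 154, 169 and 134 in T58A lymphoma, 135, 181 and 185 in S62A lymphoma, and 91.2, 107 and 101 in splenomegaly. Every lymphoma library was above the controls, and the splenomegaly libraries lay around them. It rose in the lymphomas (0.60 ± 0.14, adjusted p = 0.00812, and 0.73 ± 0.14, 0.00214) but had a difference of -0.02 ± 0.14 in splenomegaly (0.924). Eif5, the protein that triggers GTP hydrolysis by eIF2, was at 247, 235 and 248 CPM in controls, 393, 417 and 373 in T58A lymphoma, 551, 492 and 561 in S62A lymphoma, and 327, 484 and 553 in splenomegaly. Splenomegaly library 1 was the lowest of the diseased libraries and still above the controls. Eif5 rose by 0.70 ± 0.17, 1.14 ± 0.17 and 0.90 ± 0.17 (adjusted p = 0.00767, 3.72e-04 and 0.00113). Eif5b, the GTPase of subunit joining, went from 164, 176 and 183 CPM in controls to 280.1, 247 and 253 in T58A lymphoma, 233, 310.4 and 255 in S62A lymphoma, and 227, 325 and 322 in splenomegaly. The differences were 0.58 ± 0.16, 0.61 ± 0.16 and 0.74 ± 0.16 (0.0143, 0.00885 and 0.00257), and the first was lost without control library 1 (0.53, adjusted p = 0.0617).

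Eif1b, 1 of the genes for eIF1, the gatekeeper of start codon choice, was lower than control in each group. It was at 138, 143 and 123 CPM in controls, 95.5, 119.9 and 90.3 in T58A lymphoma, 88.9, 113 and 106 in S62A lymphoma, and 63.3, 60.1 and 66.7 in splenomegaly. The controls were above all other libraries and the splenomegaly masses below all. Eif1b fell by 0.41 ± 0.13 (adjusted p = 0.0356), 0.40 ± 0.13 (0.0329) and 1.09 ± 0.14 (9.36e-05) on the log2 scale. The T58A call was lost without T58A library 1 or 3 or control library 1 or 2 (adjusted p = 0.104 to 0.123), and the S62A call without S62A library 1 or 3 or control library 1 or 2 (0.0503 to 0.11). Without the 4 libraries low in Y-linked genes both calls were lost (-0.37, 0.122, and -0.43, 0.0763). Eif1 was at 161, 155 and 126 CPM in controls, 113, 142 and 154 in T58A lymphoma, 109.9, 140.3 and 91.9 in S62A lymphoma, and 93.9, 92.1 and 85.2 in splenomegaly. The lymphoma libraries overlapped the controls. Its log2 difference was -0.11 ± 0.17 in T58A lymphoma and -0.37 ± 0.17 in S62A lymphoma, not past the test (adjusted p = 0.633 and 0.0975), and it fell by 0.71 ± 0.17 in splenomegaly (0.00563; -0.63 and 0.0551 without the libraries low in Y-linked genes, which leaves 1 splenomegaly library). Without S62A library 2 it passed as lower in S62A lymphoma (-0.55, adjusted p = 0.0258). Per length, the level of Eif5 over that of Eif1 was 0.528 ± 0.0806 (SD) in controls, 0.931 ± 0.169 in T58A lymphoma, 1.54 ± 0.413 in S62A lymphoma and 1.60 ± 0.477 in splenomegaly. Eif5 is known to oppose eIF1 at the start codon. No ratio in a diseased library was as low as in any control.

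**Figure D2:**
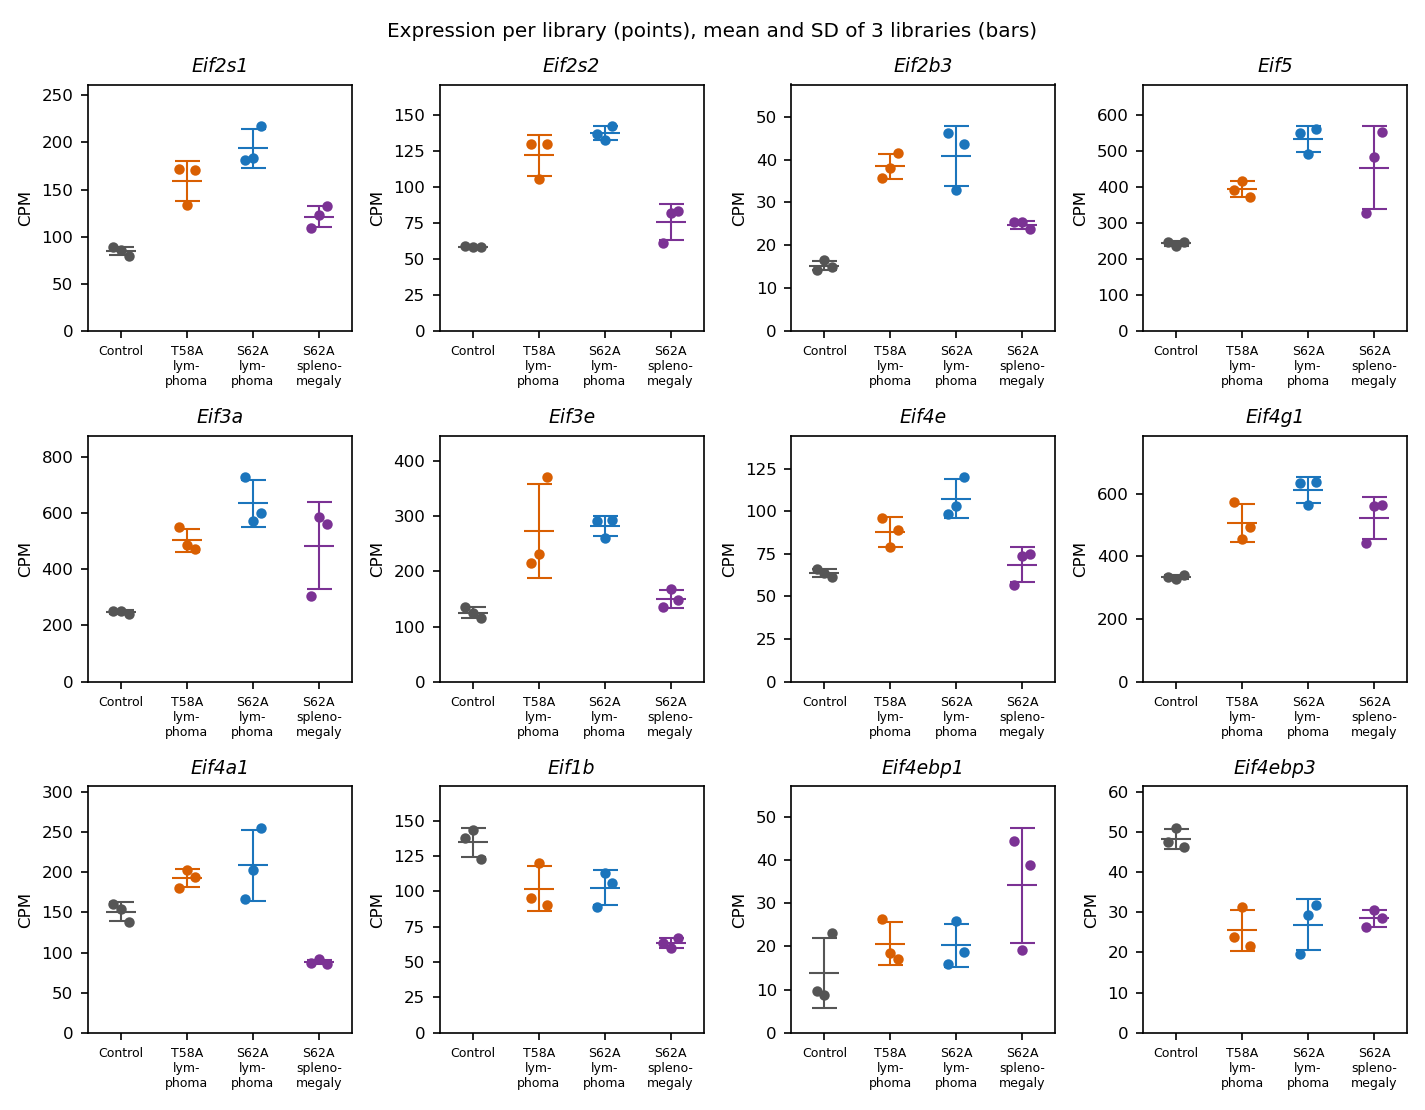
CPM of 12 initiation factor genes in each library (points), with the mean and SD of the 3 libraries of a group (bars), on axes that start at 0. Eif2s1, Eif2s2 and Eif2b3 are higher in all 6 lymphoma libraries than in any control, Eif4a1 is lowest in the splenomegaly masses at 86.3 to 91.6 CPM, and Eif4ebp3 is at most 31.7 CPM in the diseased libraries.

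The eIF3 complex bridges the small subunit and eIF4G, and it has 14 symbols here. In T58A lymphoma 7 rose, in S62A lymphoma 8 and in splenomegaly 4, and none fell. Of all genes 18.8%, 21.9% and 22.9% rose in these comparisons, so the splenomegaly count lies near the background. Eif3a, the largest core subunit (chr19:60837019-60866596 of mm9), was at 252, 249.6 and 240.3 CPM in controls, 549, 487 and 470.3 in T58A lymphoma, 729, 569.8 and 601 in S62A lymphoma, and 305, 587 and 559.9 in splenomegaly. Splenomegaly library 1 stood apart from the other splenomegaly libraries and nearest to the controls. That library also stood apart in some markers of other cells. Hbb-b1, a globin of red cells, was at 1059 CPM in it against 172 and 119 in libraries 2 and 3. The macrophage genes C1qa and Adgre1 were at 1794 against 812 and 643 and at 238 against 74.8 and 49.7. Csf1r, Cd68 and C1qb of the macrophage list were also highest in it. Lyz2 and Mertk of that list were lowest in it, at 1623 against 1690.5 and 1823 and at 30.6 against 33.9 and 34.3. The part of these cells in the values of that library was not tested. Differences were 1.02 ± 0.21, 1.36 ± 0.21 and 0.97 ± 0.21 (adjusted p = 0.00367, 5.69e-04 and 0.00322). Eif3b, the other core scaffold subunit, was at 242, 251 and 231 CPM in controls, 440.0, 398 and 467 in T58A lymphoma, 472, 383 and 363 in S62A lymphoma, and 333, 337 and 389 in splenomegaly, above the controls in every library. Its differences were 0.85 ± 0.13, 0.75 ± 0.13 and 0.55 ± 0.13 (5.53e-04, 8.72e-04 and 0.00427). Eif3e, a subunit first known as a common insertion site of mouse mammary tumour virus, was at 135, 124 and 115 CPM in controls, 216, 232 and 372 in T58A lymphoma, 292, 261 and 293 in S62A lymphoma, and 136, 168 and 148 in splenomegaly. T58A library 3 was the highest of all, and the splenomegaly masses stayed next to the controls. It rose by 1.13 ± 0.19 and 1.18 ± 0.19 (0.00103 and 6.48e-04) in the lymphomas, and differed by 0.27 ± 0.19 (0.248) in splenomegaly. Eif3m, a partner of Eif3e in the outer part of the complex, was at 62.7, 62.5 and 59.9 CPM in controls, 92.5, 102 and 100.3 in T58A lymphoma, 103, 95 and 104 in S62A lymphoma, and 66.5, 72.6 and 75.9 in splenomegaly, without overlap between control, splenomegaly and lymphoma. Its differences were 0.67 ± 0.10, 0.71 ± 0.10 and 0.22 ± 0.10 (4.61e-04, 2.52e-04 and 0.0864), and the last passed without splenomegaly library 1 (0.31, 0.0294). Eif3g, an RNA-binding subunit, was at 134, 128 and 118 CPM in controls, 179.9, 189 and 182 in T58A lymphoma, 164, 162 and 157 in S62A lymphoma, and 159.9, 176 and 205 in splenomegaly, above the controls in every diseased library. It rose by 0.53 ± 0.11, 0.34 ± 0.11 and 0.50 ± 0.11 (0.00337, 0.0251 and 0.00298), and the S62A rise was lost without S62A library 1 or 2 or control library 2 or 3 (0.0525 to 0.102).

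Eif3c, another core subunit, was at 186, 205 and 198 CPM in controls, 284, 234 and 267 in T58A lymphoma, 352, 293 and 255 in S62A lymphoma, and 259, 274 and 286 in splenomegaly. All diseased libraries were above the controls, and it rose by 0.42 ± 0.13, 0.61 ± 0.13 and 0.48 ± 0.13 (adjusted p = 0.029, 0.00357 and 0.0112). The T58A call was lost without T58A library 1 or 3 or any control library (0.0653 to 0.11) and without the libraries low in Y-linked genes, and the splenomegaly call without control library 1 (0.43, 0.0536). Eif3l was at 185, 191 and 183 CPM in controls, 211, 241 and 293 in T58A lymphoma, 255, 223 and 194 in S62A lymphoma, and 188, 179 and 196 in splenomegaly. The splenomegaly libraries overlapped the controls. Eif3l rose by 0.42 ± 0.14 in T58A lymphoma (0.0345), a call lost without T58A library 2 or 3 or any control library (0.065 to 0.136), and differed by 0.26 ± 0.14 (0.138) in S62A lymphoma and 0.01 ± 0.14 (0.952) in splenomegaly. For Eif3d, Eif3f, Eif3h, Eif3i and Eif3k no difference passed the test in these 3 comparisons. They had log2 differences between -0.29 (Eif3k in S62A lymphoma, adjusted p = 0.249) and 0.42 (Eif3d in T58A lymphoma, 0.0737). Single libraries decided some of these: Eif3d passed in T58A lymphoma without its library 1 (0.55, 0.0349), Eif3h there without library 2 (0.45, 0.0466), and Eif3i in S62A lymphoma without its library 1 (0.33, 0.0259). Per length these genes were among the most abundant members in controls, where Eif3f stood at 319 ± 27.8 FPKM, Eif3k at 311 ± 49.6 and Eif3h at 305 ± 18.3 (SD, n = 3). The first 3 places do not differ beyond their spread. Eif3a was far below them at 59.4 ± 2.06 FPKM in controls and reached 142 ± 17.7 in S62A lymphoma. The ratio of Eif3e to Eif3k per length was 0.398 ± 0.0409 in controls, 1.01 ± 0.415 in T58A lymphoma, 1.15 ± 0.34 in S62A lymphoma and 0.581 ± 0.0892 in splenomegaly. Eif3j1 and Eif3j2, which encode the loosely bound subunit, hold the same counts in every library at nearly the same position of mm9, so they are 1 measurement. They were at 5.57, 6.78 and 6.67 CPM in controls, 0.577, 11.7 and 9.2 in T58A lymphoma, 19, 22.4 and 40.1 in S62A lymphoma, and 10.5, 13.1 and 14.9 in splenomegaly. The S62A lymphoma libraries were highest, the splenomegaly libraries lay above the controls, and T58A library 1 nearly lacked reads. With all libraries the pair differed by 0.18 ± 0.69 in T58A lymphoma (adjusted p = 0.86) and 1.01 ± 0.70 in splenomegaly (0.248). Without the 4 libraries low in Y-linked genes, which leaves T58A libraries 2 and 3, it also passed as higher in T58A lymphoma. The rise in S62A lymphoma was 2.10 ± 0.71 (adjusted p = 0.033), and it was lost without S62A library 3 (1.71, 0.0933) and without each control library (2.01 to 2.14, up to 0.0975).

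**Figure D3:**
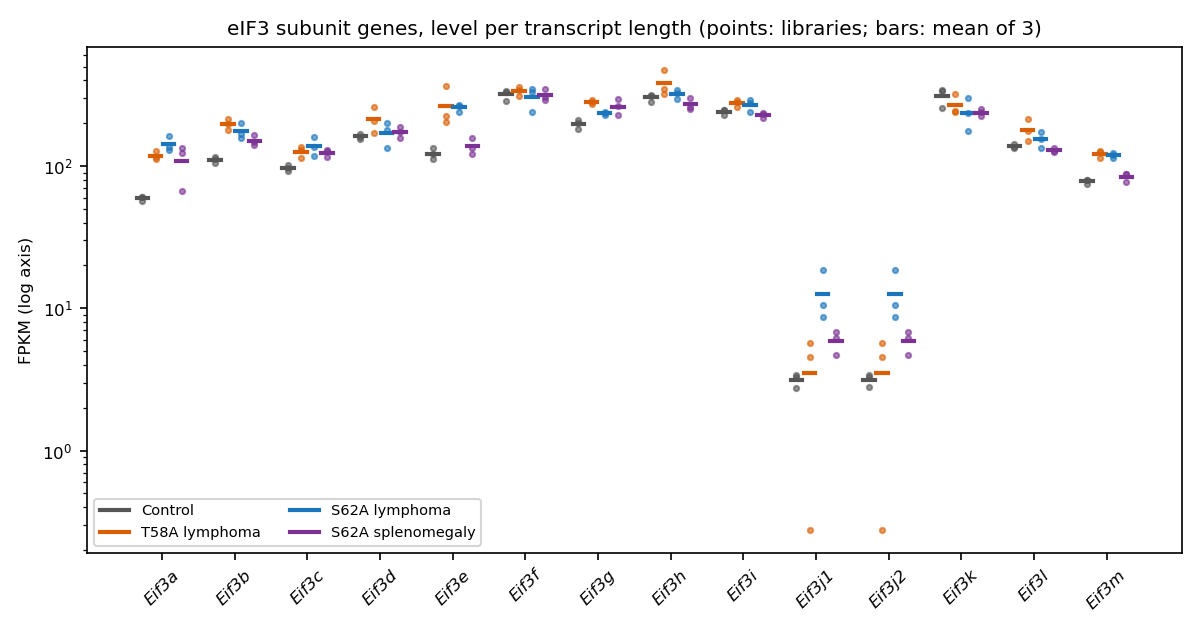
FPKM, the level per transcript length, of the 14 eIF3 symbols on a log axis, with libraries as points and the mean of the 3 libraries of each group as a bar. Group means of Eif3f, Eif3h and Eif3k lie between 237 and 381 FPKM, Eif3a is higher in lymphoma than in control, and Eif3j1 and Eif3j2 lie below all other subunits.

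In the cap-binding complex, 5 of 11 tested genes rose in T58A lymphoma and 8 of 11 in S62A lymphoma, and none fell in either. Eif4e, which binds the cap, was at 66, 63.9 and 61.5 CPM in controls, 95.7, 78.7 and 89.1 in T58A lymphoma, 98.6, 103 and 120.3 in S62A lymphoma, and 56.6, 73.8 and 75.1 in splenomegaly. All 6 lymphoma libraries were above the controls, and the splenomegaly libraries lay on both sides of them. It rose by 0.46 ± 0.14 (adjusted p = 0.0215) and 0.75 ± 0.14 (0.00137), and differed by 0.10 ± 0.14 (0.56) in splenomegaly. The T58A call was lost without T58A library 1 or 3 and without each control library (adjusted p = 0.0528 to 0.0761). Per length Eif4e ranked 44 of the 48 members in controls, at 14.2 ± 0.617 FPKM. Its relative Eif4e2, which represses translation of some mRNAs, was at 38.7 ± 2.96 FPKM and rose by 0.64 ± 0.11 in both lymphomas (9.64e-04 and 7.75e-04).

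Eif4g1, the main scaffold, was at 335, 326 and 339.7 CPM in controls, 572, 454 and 493 in T58A lymphoma, 635, 564 and 638 in S62A lymphoma, and 443, 559.6 and 563 in splenomegaly. Every diseased library was above every control, by 0.60 ± 0.13, 0.88 ± 0.13 and 0.64 ± 0.13 on the log2 scale (adjusted p = 0.00469, 4.13e-04 and 0.00202). Eif4b, which stimulates the helicase, was at 423, 407 and 417 CPM in controls, 666, 788 and 802 in T58A lymphoma, 915, 766 and 739.7 in S62A lymphoma, and 535, 583 and 560.2 in splenomegaly. Controls were lowest and lymphomas highest, without overlap, and Eif4b rose by 0.86 ± 0.12, 0.96 ± 0.12 and 0.43 ± 0.12 (3.87e-04, 1.44e-04 and 0.0122). The last of these was lost without control library 2 (0.41, 0.0524). Eif4g2, a scaffold without the eIF4E-binding part, held 14.7 to 17.9% of all member reads by group. It differed by 0.30 ± 0.16 (0.163) in T58A lymphoma and rose by 0.57 ± 0.16 (0.0142) in S62A lymphoma, a call lost without control library 3 (0.54, 0.051). Eif4h, a partner of the helicase, was at 604, 585 and 577 CPM in controls, 609, 641 and 658 in T58A lymphoma, 599, 645 and 541 in S62A lymphoma, and 509, 442 and 495 in splenomegaly, where all libraries were below the controls. It fell by 0.29 ± 0.11 in splenomegaly (0.0444), a call lost without any 1 of the 6 libraries compared (0.0712 to 0.153) and without the libraries low in Y-linked genes (-0.37, 0.0596).

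The cytoplasmic helicase eIF4A has 2 genes, and their levels in splenomegaly differed. Eif4a1 (chr11:69480438-69485925 of mm9) was at 161, 154 and 138 CPM in controls, 181, 203 and 194 in T58A lymphoma, 167, 203 and 256 in S62A lymphoma, and 87.2, 91.6 and 86.3 in splenomegaly. Eif4a2 was at 282, 297 and 292 CPM in controls, 405, 391 and 333 in T58A lymphoma, 533, 472 and 550.4 in S62A lymphoma, and 315, 377 and 384 in splenomegaly. For Eif4a1 the splenomegaly masses were the lowest libraries, whereas for Eif4a2 they lay above the controls. Eif4a1 differed by 0.35 ± 0.14 in T58A lymphoma (adjusted p = 0.077), rose by 0.47 ± 0.14 in S62A lymphoma (0.0216) and fell by 0.77 ± 0.14 in splenomegaly (0.00126). The S62A rise was lost without S62A library 3 (0.29, 0.0731), control library 2 (0.48, 0.0592) or control library 3 (0.40, 0.087), and without the libraries low in Y-linked genes (0.29, 0.103), where the T58A difference passed (0.39, 0.049). Eif4a2 rose by 0.38 ± 0.12 and 0.84 ± 0.12 in the lymphomas (0.032 and 3.56e-04) and differed by 0.31 ± 0.12 in splenomegaly (0.0552). The T58A rise was lost without T58A library 1 or 2 and without each control library (0.0827 to 0.111), and without the libraries low in Y-linked genes (0.31, 0.06). The splenomegaly difference passed with DESeq2 (0.35, 0.0117) and without splenomegaly library 1 (0.43, 0.0123) or the libraries low in Y-linked genes (0.42, 0.0463). Per length, Eif4a1 over Eif4a2 was 0.986 ± 0.0966 in controls, 0.977 ± 0.129 in T58A lymphoma, 0.763 ± 0.149 in S62A lymphoma and 0.470 ± 0.0499 in splenomegaly. Of the 50-base windows of Eif4a1, 65.3% also occur in other transcripts, mostly a processed pseudogene.

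The 3 genes for 4E-binding proteins, which keep eIF4E from eIF4G, had different patterns. Eif4ebp3 was at 47.5, 51.1 and 46.3 CPM in controls, 23.8, 31.3 and 21.5 in T58A lymphoma, 19.7, 29.2 and 31.7 in S62A lymphoma, and 26.4, 30.5 and 28.6 in splenomegaly. All 9 diseased libraries were below the controls. It fell by 0.92 ± 0.20, 0.85 ± 0.20 and 0.76 ± 0.20 (adjusted p = 0.00468, 0.00591 and 0.00843). The splenomegaly call was lost without the libraries low in Y-linked genes, which leaves 1 splenomegaly library (-0.62, 0.154), and 65.5% of its 50-base windows occur in another annotated transcript. Eif4ebp1 was at 9.65, 8.76 and 23.2 CPM in controls, 26.4, 18.5 and 17 in T58A lymphoma, 16, 25.8 and 18.8 in S62A lymphoma, and 44.5, 19.1 and 38.9 in splenomegaly. Control library 3 stood above the other controls and among the lymphomas. The difference was 0.57 ± 0.41 and 0.54 ± 0.41 in the lymphomas, not past the test (0.299 and 0.309), and both passed without control library 3 (1.16, 0.0443, and 1.13, 0.041). Eif4ebp1 rose by 1.30 ± 0.42 in splenomegaly (0.0228). That call was lost without control library 1 (1.09, 0.0893), control library 2 (1.05, 0.0895), splenomegaly library 1 (1.10, 0.075) or splenomegaly library 3 (1.26, 0.0585). Without the libraries low in Y-linked genes the difference was 0.51 (0.519). Eif4ebp2 was at 64.6, 58.2 and 65.8 CPM in controls, 63.2, 56 and 65.4 in T58A lymphoma, 103, 84.6 and 69.8 in S62A lymphoma, and 70.3, 77.1 and 73.4 in splenomegaly. It rose by 0.45 ± 0.14 in S62A lymphoma (0.0237), a call lost without S62A library 1 (0.30, 0.0868) or any control library (0.39 to 0.48, 0.0505 to 0.0958).

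Outside these complexes, Eif2a, an initiator tRNA carrier that does not need GTP, was at 88.1, 85.3 and 84.8 CPM in controls, 131, 130.0 and 115 in T58A lymphoma, 134, 135 and 191 in S62A lymphoma, and 94.6, 107 and 114 in splenomegaly, above the controls in every diseased library. It rose in the lymphomas by 0.54 ± 0.14 and 0.83 ± 0.14 (adjusted p = 0.0127 and 0.001). Eif6, which keeps ribosomal subunits apart, was at 108, 113 and 101 CPM in controls, 117, 165 and 139 in T58A lymphoma, 124, 134 and 118 in S62A lymphoma, and 154, 122 and 139.9 in splenomegaly. No diseased library was as low as any control, but the gaps were small. It rose by 0.39 ± 0.14 in T58A lymphoma (0.0479) and 0.37 ± 0.14 in splenomegaly (0.0441) and differed by 0.22 ± 0.14 in S62A lymphoma (0.209). The T58A rise was lost without T58A library 2 or 3 or any control library (0.0877 to 0.196), and the splenomegaly rise without splenomegaly library 1 or 3 or any control library (0.0561 to 0.142) and without the libraries low in Y-linked genes (0.23, 0.227). Eif2d, another tRNA carrier, was at 55.8, 51.3 and 46.3 CPM in controls, 46.9, 41.8 and 43.4 in T58A lymphoma, 47.7, 54 and 60.5 in S62A lymphoma, and 61.5, 59 and 66.4 in splenomegaly. It differed from control by -0.22 to 0.29, not past the test in any of the 3.

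Set directly against each other, the S62A and T58A lymphomas gave 0 calls among the 47 members by edgeR, where 3.15% of all genes were called. That share rests on a spread estimated from all 4 groups. With only these 2 groups fitted, edgeR called 0 members and 0 of 14138 genes. Their libraries carry different title codes (I and H), and the code cannot be told apart from the group here. At an unadjusted p under 0.05 there were 6 members, and the smallest adjusted p was 0.0635. DESeq2 called 4 (11.2% of all genes), all higher in S62A lymphoma, and limma on FPKM called 0 (2.16% of all genes). The 4 were Eif4a2 (0.46 ± 0.12, DESeq2 adjusted p = 0.00545), Eif4ebp2 (0.47 ± 0.16, 0.0304) and the shared counts of Eif3j1 and Eif3j2 (1.91 ± 0.68, 0.0459). In edgeR, without T58A library 1 the pair Eif3j1 and Eif3j2 was called (1.37, adjusted p = 0.0496), without S62A library 1 Eif4e3 (1.16, 0.00909), and without S62A library 3 Eif4ebp2 (0.61, 0.0424). Intervals at 95% show what sizes remain possible. For Eif4e the difference of S62A minus T58A was 0.29 (-0.01 to 0.59), for Eif5 0.44 (0.08 to 0.80), for Eif2b3 0.09 (-0.26 to 0.43), for Eif3e 0.04 (-0.37 to 0.45) and for Eif4e2 -0.00 (-0.23 to 0.23). The intervals are for single genes, use the spread estimated from all 4 groups, and are not adjusted for the number of members.

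Compared with S62A lymphoma, the splenomegaly masses had lower levels of 21 of 47 members and higher levels of none, although without splenomegaly library 1 Eif3g passed as higher (0.29, adjusted p = 0.042). That is 44.7% called, against 54.3% of all genes; 28.6% of all genes were lower and 25.6% higher. The members' median difference was -0.39 and that of all genes -0.07. By role, grouped by symbol, 9 of 11 genes of the cap complex group fell, Eif4a3 among them, and 4 of 5 eIF2B genes. Of the start codon genes 3 of 7 fell, and of the eIF3 symbols 2 of 14. Of the 21 calls, 15 were kept with each library left out in turn. Those of Eif1ad, Eif2b2, Eif4a3 and Eif4h were each lost in 5 such runs, Eif2b5 in 4 and Eif4g3 in 1. The adjusted p in those runs was 0.0506 to 0.179. Eif4a1 fell by 1.24 ± 0.15 (adjusted p = 5.49e-05), from 209 ± 44.4 to 88.4 ± 2.83 CPM (SD, n = 3), and the groups did not overlap. Eif2b1 fell by 0.91 ± 0.15 (5.69e-04), Eif3e by 0.90 ± 0.19 (0.00201), Eif2s2 by 0.86 ± 0.13 (3.24e-04), Eif1ax by 0.75 ± 0.14 (0.00121), Eif2b3 by 0.72 ± 0.16 (0.00273) and Eif4e by 0.65 ± 0.14 (0.00219). Eif3a, Eif5, Eif5b and Eif4g1, each above the controls in splenomegaly, differed from S62A lymphoma by -0.39, -0.23, 0.13 and -0.23, not past the test (0.138, 0.251, 0.497 and 0.153). B cell markers, macrophage markers and the summed levels of the T cell markers and of 7 proliferation genes moved with this comparison. Of the 8 T cell markers, 2 were called lower (Lck and Thy1), 1 higher (Cd2), and the rest were not called. Mean levels went from 2003 to 126 CPM for Thy1, from 558 to 154 for Lck and from 39.8 to 149 for Cd2. Proliferation genes were at 2249 to 3344 CPM in S62A lymphoma and 1097 to 1649.7 in splenomegaly, and their part in the result was not tested. Without the 4 libraries that are low in Y-linked genes, 9 members were called, against 35% of all genes; these were Eif1ad, Eif2b1, Eif2s2, Eif3m, Eif4a1, Eif4b, Eif4e2, Eif4g3 and Eif4h. That leaves 2 S62A lymphoma libraries and 1 of splenomegaly, assumed to vary like the other groups. Members no longer called differed there by -0.66 (Eif3e), -0.58 (Eif2b3), -0.51 (Eif1ax), -0.51 (Eif2s1) and -0.39 (Eif4e).

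The Y-linked gamma subunit gene Eif2s3y had the pattern of the other Y-linked genes. It was at 115, 114 and 123 CPM in controls, 7.74, 131 and 175 in T58A lymphoma, 187, 130.4 and 0.867 in S62A lymphoma, and 0, 127 and 9.54 in splenomegaly. T58A library 1, S62A library 3 and splenomegaly libraries 1 and 3 were low, and the other 8 libraries were at 114 CPM or more. In the same 4 libraries the sum of Ddx3y, Kdm5d and Uty was 0.159 to 18.2 CPM, against at least 193 elsewhere, and Xist, the RNA of the inactive X chromosome, was at 779.9 to 2258 CPM. All controls were high in Y-linked genes. Eif2s3y did not pass the test in any comparison (adjusted p = 0.513 to 0.999), with SE of 1.61 to 1.66. The labels used here give no sex.

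**Figure D4:**
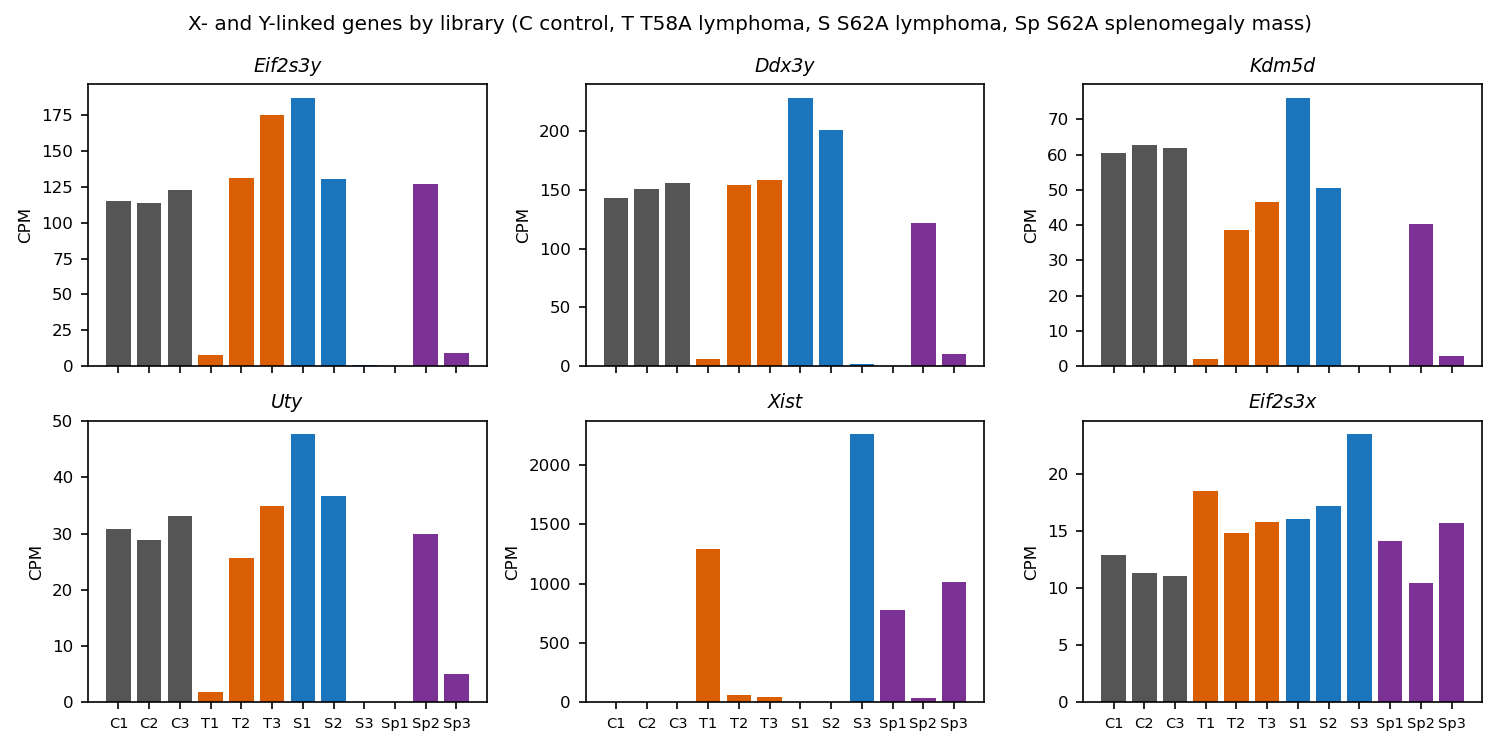
CPM of 4 Y-linked genes, Xist and the X-linked Eif2s3x in each of the 12 libraries, as bars from 0 coloured by group. Eif2s3y is at 0 to 9.54 CPM in T1, S3, Sp1 and Sp3, the same 4 libraries in which Xist reaches 779.9 CPM or more.

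Other genes of the pathway were read from 3 lists, whose counts stand against 18.8% of all genes higher and 17.4% lower in T58A lymphoma, 21.9% and 22.2% in S62A lymphoma, and 22.9% and 26.3% in splenomegaly. Of 13 genes of elongation and termination, 9 rose and 1 fell in T58A lymphoma, 11 rose and 1 fell in S62A lymphoma, and 9 rose and 1 fell in splenomegaly. Eef1b2, the exchange factor of elongation, rose from 425 ± 21.7 CPM in controls to 986 ± 115 in T58A lymphoma and 995 ± 41.3 in S62A lymphoma (1.21 ± 0.12, adjusted p = 3.64e-05, and 1.23 ± 0.12, 2.36e-05). The gene that fell was Eef2k, the kinase that inhibits elongation factor eEF2, from 55.4 ± 3.94 CPM to 11.6 ± 3.54 and 7.82 ± 1.41 in the lymphomas (-2.25 ± 0.24, 6.13e-05, and -2.82 ± 0.24, 1.35e-05) and to 31.1 ± 2.7 in splenomegaly (-0.83 ± 0.23, 0.0102). Eif5a2 was the only gene of the 3 lists called between the lymphomas, at 41.3 ± 8.29 CPM in S62A and 10.2 ± 5.56 in T58A lymphoma (2.02 ± 0.38, 0.0269). With the 2 lymphoma groups fitted alone, 0 genes were called between them, so this call was lost too.

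Of 19 genes around mTOR and the cap, 5 rose and 4 fell in T58A lymphoma, 6 rose and 2 fell in S62A lymphoma, and 3 rose and 8 fell in splenomegaly. Pabpc1, the poly(A)-binding partner of eIF4G, rose from 349 ± 22.1 to 871 ± 96.7 CPM in T58A lymphoma (1.32 ± 0.14, adjusted p = 7.52e-05). Mknk1, a kinase of eIF4E, fell from 84.1 ± 2.79 to 49.7 ± 7.87 CPM there (-0.76 ± 0.14, 0.00175). Of 12 genes of the integrated stress response, which acts through phosphorylation of eIF2, 2 rose in each lymphoma group, near the background share, and 8 in splenomegaly, and none fell. Asns, asparagine synthetase, was at 4.77 ± 2.49 CPM in controls, 19.6 ± 7.79 in T58A lymphoma, 49.1 ± 32.7 in S62A lymphoma and 56.6 ± 20.9 in splenomegaly (2.03 ± 0.60, 0.0214; 3.35 ± 0.62, 0.00155; 3.56 ± 0.63, 8.66e-04). The eIF2 kinase gene Eif2ak3 rose in splenomegaly against control, from 82.9 ± 1.35 to 117 ± 24.6 CPM (0.50 ± 0.17, 0.029), and against S62A lymphoma, where it was at 61 ± 4.21 (0.94 ± 0.17, 8.24e-04). Macrophage markers, at 3691 to 6336 CPM in these masses, moved with the stress list, and their part in it was not tested.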

How the data were processed

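Files for a library hold raw counts of reads on each RefSeq transcript, as deposited, and the authors' FPKM values (reads per transcript length and library depth). The submitters' processing notes name Bowtie 1.0.0, bcl2fastq 2.20.0.422, DESeq2 and build mm9. The counter, strand setting and handling of multiply mapped reads: not given in the sources used here. Starts on mm9 were taken as counted from 0 in the files and are printed from 1. Per gene, the transcript with the most reads over the 12 libraries was used. Counts were fitted with edgeR 4.0.16 in R 4.3.3 (TMM, filterByExpr with a minimum count of 10, quasi-likelihood test, group as the only term, all 12 libraries, Benjamini-Hochberg adjustment over 15606 genes). Replicate numbers are those of deposit order, so no pairing was fitted. Libraries within a group differed beyond sampling noise, with a chi-square per degree of freedom of 2.65 between control libraries 1 and 2, which share a title code, 40.6 and 43.5 between control library 3 and these, and 19 to 116 within the other groups.

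The fitting script was tested on simulated data with the same spread set for every gene. For T58A lymphoma against control it recovered 11% of genes changed 2-fold and 92% of those changed 4-fold, and called 3 unchanged genes. Differences of 2-fold or less can therefore be missed. Members, lists and tests were chosen with earlier results of these data known. Values in every library were given for 18 fixed genes, for the 6 largest rises and falls per comparison (at least 20 CPM, no overlap), and for the smallest adjusted p per role. Alternatives were DESeq2 1.42.0, limma 3.58.1 on log2(FPKM + 1), library size scaling, no filter, summed transcripts, 2 groups only, 1 title code only, no 4E-binding proteins, and each library left out. Chosen after seeing the data were leaving out the 4 libraries low in Y-linked genes, and leaving out members that share at least 10% of their 50-base windows with other GENCODE M21 transcripts.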

Additional observations from a re-analysis of the deposited data

How the results depend on the processing

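No called difference of a named member changed direction under any alternative run. Signs of differences that stayed uncalled were not compared. Of 1506 values, 1369 kept their side of the threshold, 118 lost a call and 19 gained one. With each library left out in turn, the members called numbered 16 to 22 in T58A lymphoma, 20 to 28 in S62A lymphoma and 14 to 18 in splenomegaly against control, 0 to 2 between the lymphomas, and 16 to 22 in splenomegaly against S62A lymphoma. With all libraries, the calls among the 47 members were 24, 29, 19, 0 and 21 in these comparisons. Calls over all genes also moved. With each library left out they numbered 3865 to 5122 in T58A lymphoma, against 5646 with all libraries. The ranges were 5114 to 6595 in S62A lymphoma (6885) and 6020 to 6728 in splenomegaly (7681). They were 148 to 783 between the lymphomas (492) and 7262 to 8223 in splenomegaly against S62A lymphoma (8472). With control library 3 as the lone control, assumed to vary like the other groups, 0 of the 24 T58A calls were left, at log2 differences such as 1.38 for Eif2b3 and 1.19 for Eif1a (1.33 and 1.12 with all controls). DESeq2 called 4 members between the lymphomas, where edgeR called 0. Fitting splenomegaly and control alone gave 30 calls. Leaving out members with shared windows, which leaves 30 to test, gave 18 calls in S62A lymphoma and 13 in splenomegaly against S62A lymphoma, and leaving out the 4 libraries low in Y-linked genes gave 9 in the latter, with 1 splenomegaly library left. Library size scaling moved the median of all genes by -0.11 in splenomegaly against control, and its calls there were 12 higher and 7 lower. Among named members, it lost Eif6 in T58A lymphoma (adjusted p = 0.062) and Eif4a1 and Eif4ebp2 in S62A lymphoma (0.0629 and 0.0641). In splenomegaly against control it lost Eif2s2 and Eif6 (0.127 and 0.136). With limma on FPKM the same calls were lost, and that of Eif2s3x in S62A lymphoma (0.0623). Among tested members Eif3j1, Eif3j2 and Eif2s3x had the lowest levels per length, so depth limits these most.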

Other observations

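Eif4a2 was the member whose transcript records differed most in reads. The record with the most reads held 75926 over all libraries and the smallest of the 4 held 40249, which is 53% of it. Small nucleolar RNA genes lie within Eif4a2, and how overlapping reads were assigned does not stand in the labels. Eif4e3, an eIF4E relative, was at 41.5 CPM in S62A lymphoma library 1 and at 145 and 164 in libraries 2 and 3, against 112 to 117 in controls. T58A lymphoma libraries were at 79, 59.3 and 68.7 CPM and splenomegaly libraries at 68.7, 67.7 and 59.2, all below the controls. Eif4e3 passed the test in none of the 5 comparisons with all libraries (smallest adjusted p = 0.0715). Its differences from control were -0.74 ± 0.36 in T58A lymphoma and -0.82 ± 0.37 in splenomegaly (0.134 and 0.0825). Without S62A library 1, S62A lymphoma passed as higher than control (0.42, 0.0307) and splenomegaly as lower than S62A lymphoma (-1.25, 7.63e-05).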
